A study of Mus musculus with 27 samples.

Results

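The genes described here are the nuclear genes for the subunits of the mitochondrial respiratory chain and ATP synthase, measured in the ovary of young and aged mice. They were taken by symbol: protein-coding rows of the count table whose GENCODE M21 symbol starts with Ndufa, Ndufb, Ndufc, Ndufs or Ndufv (complex I), Sdha to Sdhd (complex II), Uqcr (complex III), Cox4 to Cox8 (complex IV) or Atp5 (ATP synthase), without the assembly factors Ndufaf and Sdhaf. The rule found 85 genes among 51789 gene IDs: 36 of complex I, 4 of complex II, 8 of complex III, 18 of complex IV, 17 of ATP synthase, and Ndufa4 and Ndufa4l2, which were kept apart because Ndufa4, first assigned to complex I, is now held to be a subunit of complex IV.

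The study measured polyA RNA from the ovaries of 27 mice by QuantSeq, a method that reads a tag near the 3′ end of each transcript. In experiment 1 there were 5 young and 4 aged mice without treatment, and 4 aged ones that received TRi-1, a small molecule that inhibits thioredoxin reductase 1. In experiment 2 there were 5 young and 5 aged mice without treatment, and 4 aged ones that received auranofin, a gold compound that inhibits thioredoxin reductases. Strain, genotype, ages, doses and lengths of treatment are not given in the sources used here, every group is whole ovary, and young mice given a drug are not among the groups.

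Complex I and complex II pass electrons from NADH and succinate to ubiquinone, complex III passes them on to cytochrome c, and complex IV passes them to oxygen. The proton gradient that complexes I, III and IV build drives ATP synthase. A few subunits of the chain are encoded in mitochondrial DNA, and the rest, described here, are encoded in the nucleus and imported. In the ovary, oocytes are rich in mitochondria, and steroid-making cells start hormone synthesis inside them.

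Library totals ran from 6460903 to 14814381 counts. Levels below are CPM (counts divided by a TMM-scaled library size, within each experiment), changes are log2 fold changes ± standard error, and adjusted p are Benjamini-Hochberg values from edgeR's quasi-likelihood test over all genes, with 0.05 as the threshold. 2 libraries of experiment 2 were low in the defining markers of the labelled tissue: the summed level of 13 ovarian somatic and steroidogenic marker genes was 107 CPM in young replicate 3 and 57.2 CPM in auranofin replicate 3, against 2185 to 3714 CPM in the other young and 469 to 1057 CPM in the other auranofin libraries of that experiment. Their ovarian stroma markers, at 8790 and 7979 CPM, lay within the range of the other libraries of experiment 2, 5078 to 9461 CPM. Aged replicate 1 of experiment 2 was also low in the first list, at 183 CPM, against 768 to 1706 CPM in the other aged libraries. On the second principal component of all genes (15.2% of the variance), young replicate 3 and aged replicate 1 of experiment 1 and young replicate 2 and auranofin replicate 4 of experiment 2 lay between -77.7 and -39.5, and 22 others lay between -21.9 and 35.1. The remaining library, young replicate 3 of experiment 2, lay at -56.2. Results are given with all libraries, and where they differ, without these.

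77 of the 85 genes had a mean of at least 5 CPM over the 27 libraries, and 81 entered the test in experiment 1 and 83 in experiment 2. The 8 genes under 5 CPM were mostly isoforms known from other tissues. Cox7b2, a testis isoform, had no count in any library, and Cox8c, another testis isoform, had 11 counts in all, and neither was tested. Cox4i2, the isoform of complex IV subunit 4 known from lung, had 186 counts, and Ndufa4l2, a paralogue of Ndufa4 known from hypoxia, had 289. Both were tested only in experiment 2 and in the fit of all libraries. Cox6a2 and Cox8b, the heart and skeletal muscle isoforms, Atp5s, a factor named after ATP synthase, and Sdhd, the small membrane anchor of complex II, also lay under 5 CPM. Sdhd ranged from 0 to 10.2 CPM over the libraries.

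In experiment 1, more of the genes were lower in aged than in young ovaries than were higher. Of the 81 tested, 22 fell and 6 rose with age. Over all 16028 genes tested, 16.4% were called lower and 18.5% higher. The median log2 fold change of the 81 genes was -0.30 (-0.48 with the GC offsets described below), beside 0.02 over all genes, and 58 lay below 0 and 23 above it. In complex I, 11 of 36 genes fell and 1 rose. In complex III, 2 of 8 fell and 1 rose, in complex IV, 2 of 15 fell and 3 rose, and in ATP synthase, 6 of 17 fell and 1 rose. Ndufa4 fell, and none of the 4 genes of complex II passed. Restricted to genes whose young and aged libraries did not overlap, 14 lay lower and 8 higher in aged ovaries, where 13.3% and 14.1% of all genes did so. As shares of the 81 members, 7.41% were called higher and 27.2% lower, and 9.88% and 17.3% lay apart in these directions. Members were thus below the share over all genes on the higher side and above it on the lower side, and neither gap was tested.

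**Figure D1:**
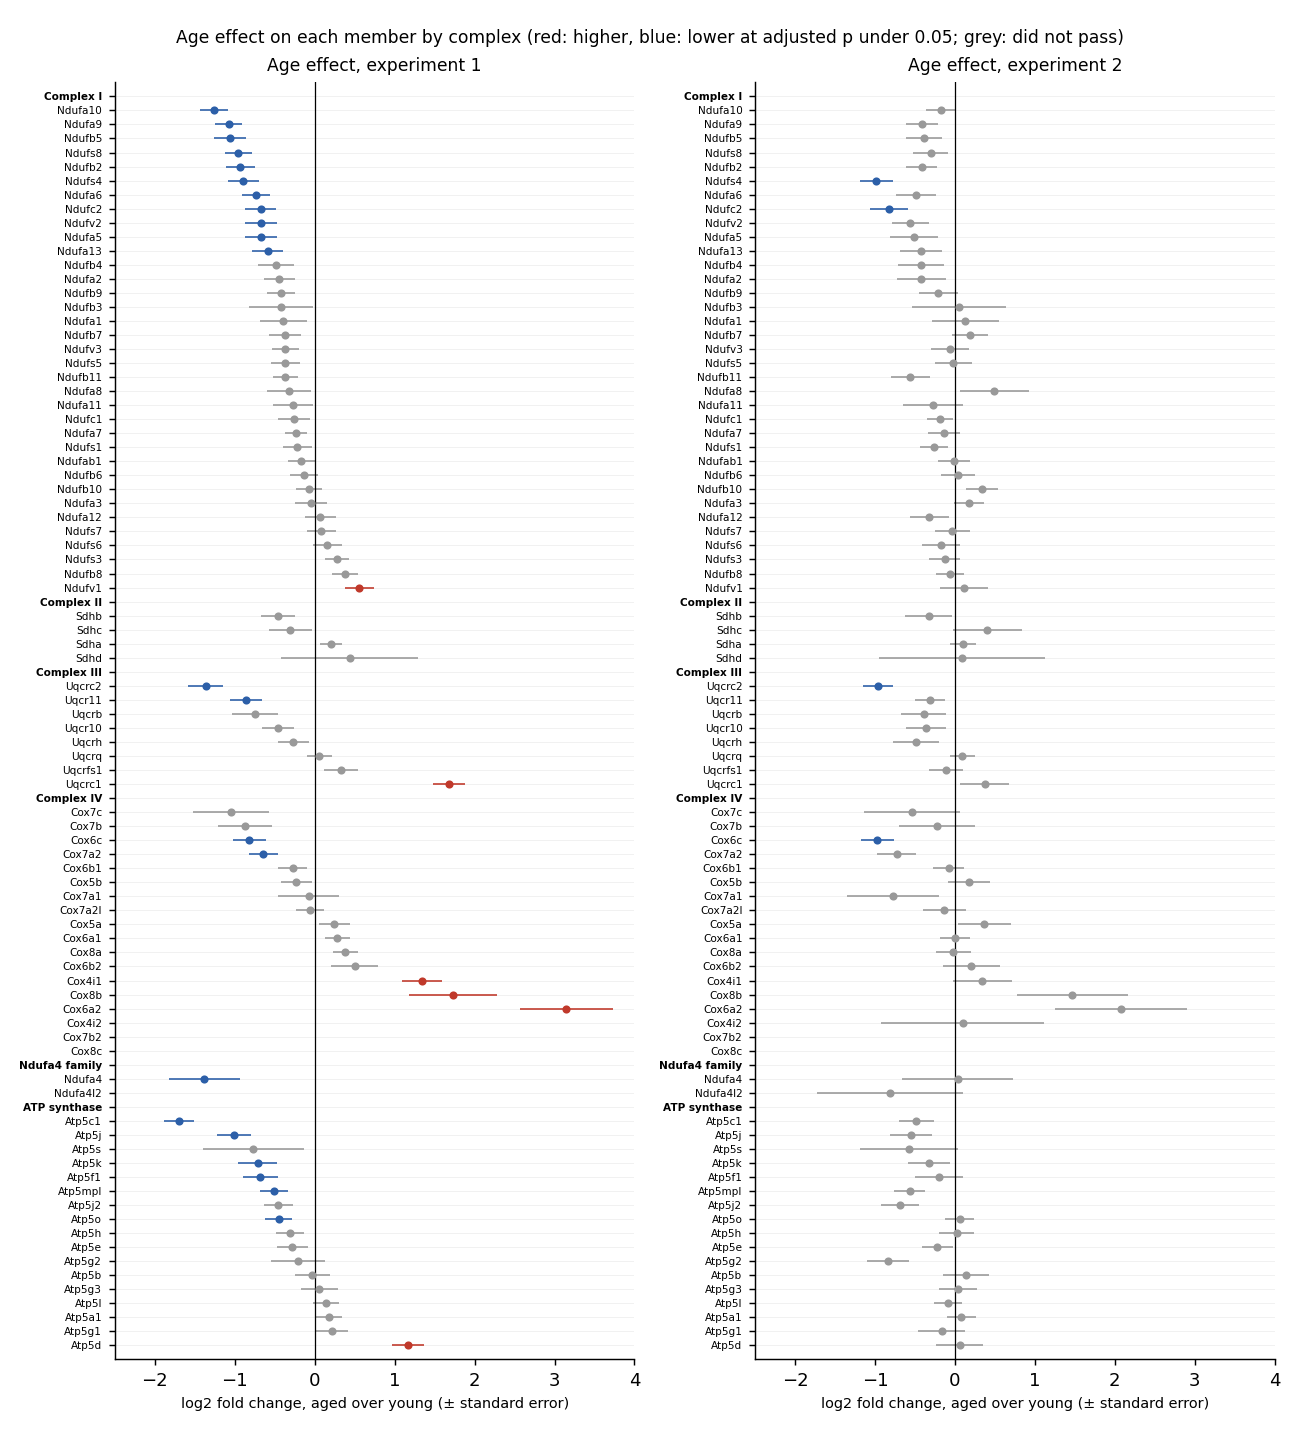
Log2 fold change of aged over young ovary (x axis, whiskers are standard errors) for each gene by complex (y axis, ordered by the effect in experiment 1) in both experiments. In experiment 1, 22 genes were lower (blue) and 6 higher (red). In experiment 2, 4 were lower and none passed as higher. Genes with no point were not tested, and 1 gene that did not pass is not drawn.

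In experiment 2, fewer of the same genes passed. 4 of 83 fell with age and none rose, where 4.59% of 16309 genes were called lower and 5.86% higher, so the share of members called lower was close to the background. In edgeR at an unadjusted p under 0.05, 14 members passed in either direction, beside 23.3% of all genes, and DESeq2 called 8 lower (9.64%, where 7.16% of all genes were) and none higher. 6 members, Cox6c, Cox7a2, Ndufb2, Ndufb11, Ndufs4 and Uqcrc2, lay lower in every aged than in every young library, where 4.61% of all genes did, and none lay higher, where 6.47% did. The median was -0.17, beside -0.03 over all genes, and was nearer 0 without young replicate 4 (-0.11) or aged replicate 3 (-0.11) and farther with the GC offsets described below (-0.29). The 4 genes were Uqcrc2, Cox6c, Ndufs4 and Ndufc2, and each of them had fallen in experiment 1. Of the 28 genes called in experiment 1, 26 had the same sign in experiment 2 (92.9%). Among all genes, 5417 were called in experiment 1 and tested in both experiments, and 89.6% of them had the same sign. Leaving out the pair of libraries with low ovarian markers kept the count at 4, also with aged replicate 1 left out beside them. Leaving out the 4 libraries named above for the second component raised it to 7, and leaving out young replicate 3 of experiment 2 as well, which lay beyond 2 of them, gave 12 lower and 1 higher. In a fit of all 27 libraries, the mean of both age effects was lower for 22 of 83 genes and higher for 5, where 17.8% and 17.5% of all genes were called.

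Uqcrc2 (ENSMUSG00000030884, chr7:120635176-120659524 in GRCm38) encodes core protein 2 of complex III, a matrix-facing scaffold of the complex. Its level in experiment 1 was 213, 287, 266, 271 and 264 CPM in the young libraries, 71.5, 136, 121 and 76.3 CPM in the aged and 102, 93.9, 120 and 148 CPM in those given TRi-1. In experiment 2 it was 203, 177, 228, 251 and 183 CPM in young, 113, 119, 116, 81.8 and 105 CPM in aged and 110, 109, 115 and 70.2 CPM in auranofin ovaries. Every young library lay above every aged or treated one of its experiment. The age effect was -1.36 ± 0.22 in experiment 1 (adjusted p = 1.97e-04) and -0.96 ± 0.19 in experiment 2 (adjusted p = 0.00406).

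Cox6c (ENSMUSG00000014313, chr15:35925886-35938246), a small membrane subunit of complex IV, was at 1590, 2157, 1978, 1940 and 1697 CPM in young, 707, 1185, 1365 and 995 CPM in aged and 836, 771, 768 and 1197 CPM under TRi-1 in experiment 1. The levels in experiment 2 were 1771, 1719, 1158, 2303 and 2128 CPM in young, 877, 1086, 774, 931 and 965 CPM in aged and 579, 619, 778 and 864 CPM in auranofin ovaries. Young and aged libraries did not overlap in either experiment. The lowest young value of experiment 2 came from a library with low ovarian markers, young replicate 3. The age effects were -0.82 ± 0.20 (adjusted p = 0.00547) and -0.97 ± 0.21 (adjusted p = 0.00708).

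Ndufs4 (ENSMUSG00000021764, chr13:114287795-114388258) encodes an accessory subunit of complex I near its NADH-oxidising module, and its loss in mice gives a widely used model of Leigh syndrome. It was at 223, 298, 262, 246 and 254 CPM in young, 125, 142, 151 and 135 CPM in aged and 107, 97.0, 95.1 and 171 CPM under TRi-1 in experiment 1. Experiment 2 gave 232, 224, 169, 317 and 268 CPM in young, 127, 145, 94.7, 132 and 114 CPM in aged and 90.3, 105, 112 and 158 CPM in auranofin ovaries. Young and aged libraries did not overlap in either experiment, and the age effects were -0.89 ± 0.19 (adjusted p = 0.00174) and -0.98 ± 0.21 (adjusted p = 0.00729).

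Ndufc2 (ENSMUSG00000030647, chr7:97400003-97407802), an accessory subunit of the membrane arm of complex I, was at 430, 487, 305, 386 and 409 CPM in young and 173, 305, 293 and 238 CPM in aged ovaries of experiment 1. Its level in experiment 2 was 428, 220, 212, 535 and 403 CPM in young and 202, 218, 177, 190 and 228 CPM in aged ovaries. The groups met at the edge in experiment 1 and overlapped in experiment 2, where the low young libraries were replicates 2 and 3. The effects were -0.68 ± 0.19 (adjusted p = 0.0112) and -0.82 ± 0.24 (adjusted p = 0.0406). The call in experiment 2 was lost when any of 8 single libraries was left out (all 5 aged ones and young replicates 1, 4 and 5), with adjusted p up to 0.0976.

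**Figure D2:**
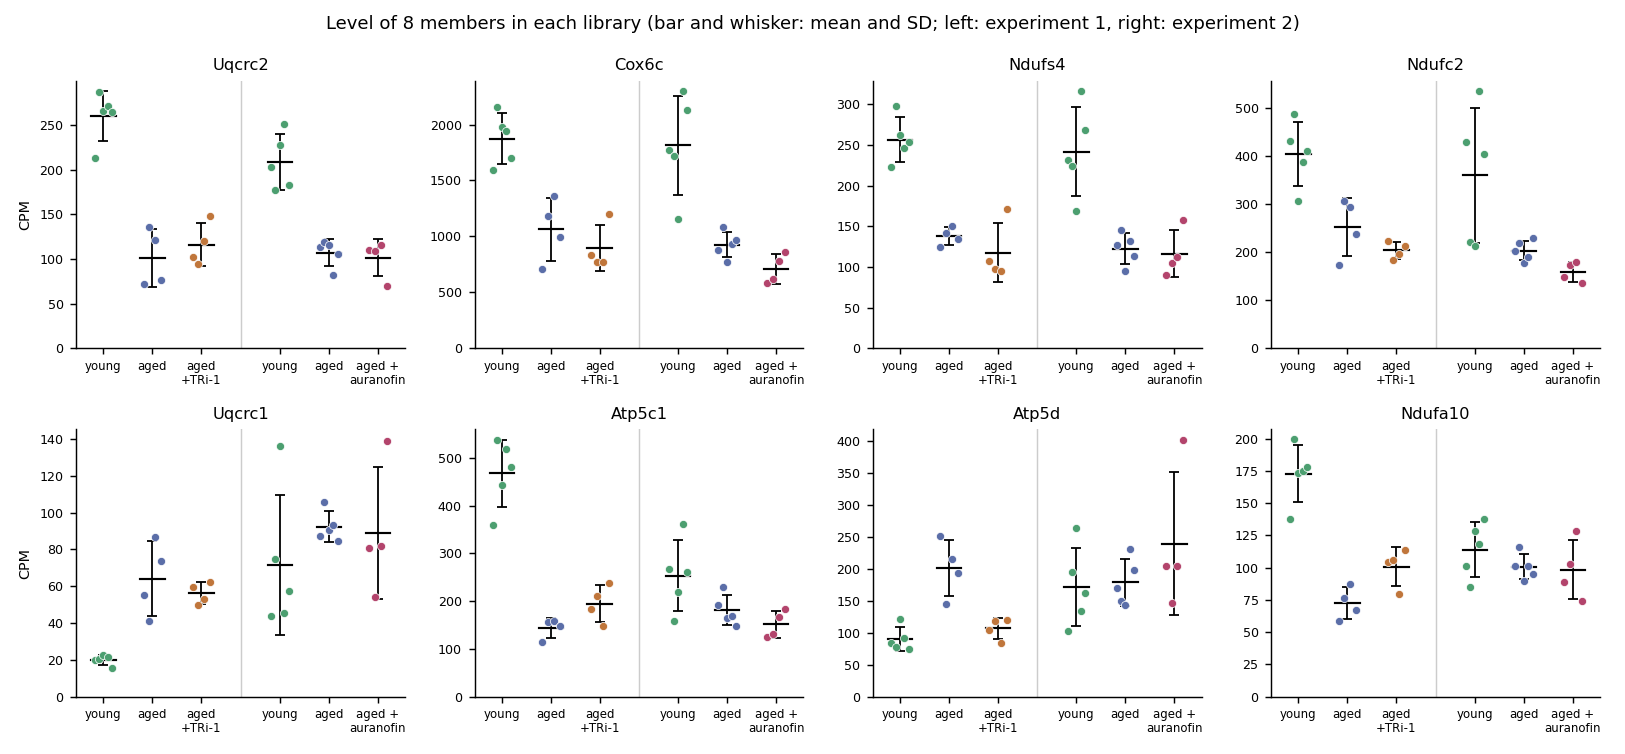
CPM (y axis) of 8 genes in each of 27 libraries (points), by group (x axis), with the mean and SD. Uqcrc2, Cox6c and Ndufs4 separate young from aged libraries in both experiments. Uqcrc1, Atp5c1, Atp5d and Ndufa10 do so in experiment 1, while their young and aged libraries overlap in experiment 2.

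Several genes changed in experiment 1 by as much or more, and did not pass in experiment 2. Uqcrc1 (ENSMUSG00000025651, chr9:108936633-108949623), which encodes core protein 1, the partner of Uqcrc2 in complex III, moved in the opposite direction to its partner. It was at 20.1, 20.3, 22.5, 21.8 and 15.5 CPM in young, 55.4, 40.9, 86.6 and 73.8 CPM in aged and 59.5, 49.9, 53.1 and 62.5 CPM under TRi-1 in experiment 1. All aged libraries lay above all young ones, and the age effect was 1.68 ± 0.21 (adjusted p = 2.26e-05). In experiment 2 the young libraries were at 43.6, 74.7, 136, 45.7 and 57.5 CPM and the aged at 87.4, 106, 90.3, 93.4 and 84.8 CPM. The young library at 136 CPM, replicate 3, is one with low ovarian markers, the groups overlapped only through it, and the effect was 0.37 ± 0.31 (adjusted p = 0.520). Over both experiments Uqcrc1 rose by 1.02 ± 0.19 (adjusted p = 1.62e-04) and Uqcrc2 fell by 1.17 ± 0.14 (adjusted p = 3.94e-07). The difference of the age effect of Uqcrc1 between experiments was -1.29 ± 0.39 and did not pass (adjusted p = 0.181). Without young replicate 3 of experiment 2 it was -0.92.

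ATP synthase showed the same split within its F1 head. Atp5c1 (ENSMUSG00000025781, chr2:10056016-10080510) encodes the gamma subunit, the rotating central stalk, and was at 359, 538, 444, 518 and 480 CPM in young and 114, 156, 158 and 149 CPM in aged ovaries of experiment 1, without overlap (-1.70 ± 0.19, adjusted p = 1.19e-05). The second experiment gave 267, 158, 219, 361 and 261 CPM in young and 193, 230, 165, 168 and 149 CPM in aged ovaries, which overlapped (-0.48 ± 0.22, adjusted p = 0.199). Atp5d (ENSMUSG00000003072, chr10:80138632-80145818), the delta subunit at the foot of that stalk, was at 84.2, 77.0, 121, 91.3 and 75.2 CPM in young and 251, 145, 215 and 194 CPM in aged ovaries of experiment 1, again without overlap and in the other direction (1.17 ± 0.20, adjusted p = 3.17e-04). In experiment 2 its young libraries, at 103 to 264 CPM, spanned the aged ones, at 143 to 232 CPM (0.06 ± 0.29, adjusted p = 0.937). The other F1 subunits, Atp5a1, Atp5b and the small Atp5e, did not pass in either experiment, at 0.18 ± 0.16, -0.03 ± 0.22 and -0.28 ± 0.19 in experiment 1. Of the other parts of the enzyme, Atp5j, which couples the peripheral stalk, fell by 1.01 ± 0.21 in experiment 1 (adjusted p = 0.00181), as did Atp5f1 and Atp5o of that stalk, by 0.68 ± 0.22 (adjusted p = 0.0228) and 0.45 ± 0.17 (adjusted p = 0.0492). Atp5k and Atp5mpl, small membrane subunits, fell by 0.72 ± 0.24 and 0.51 ± 0.17, and the call for Atp5k was lost without young replicate 2, 3 or 4 or aged replicate 2 or 4 (adjusted p up to 0.0976).

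In complex I, the genes that fell in experiment 1 belonged to all parts of the enzyme. Ndufa10, an accessory subunit of the membrane arm, was at 138, 200, 173, 175 and 178 CPM in young and 58.3, 76.3, 87.2 and 67.1 CPM in aged ovaries (-1.26 ± 0.18, adjusted p = 7.5e-05). Ndufa10 in experiment 2 was at 101, 85.0, 128, 118 and 138 CPM in young and 101, 116, 89.7, 101 and 95.4 CPM in aged ovaries. The groups were apart in experiment 1 and overlapped in experiment 2, where the effect was -0.18 ± 0.19 (adjusted p = 0.645). Ndufa9, an accessory subunit near the ubiquinone site, was at 125 to 150 CPM in young and 58.9 to 73.3 CPM in aged ovaries of experiment 1 (-1.08 ± 0.17, adjusted p = 1.87e-04). Ndufb5 and Ndufb2 of the far membrane arm fell by 1.06 ± 0.20 and 0.93 ± 0.18, and Ndufa6, Ndufa5 and Ndufa13 by 0.74, 0.67 and 0.59.

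The core subunits of complex I that are encoded in the nucleus did not move together. Ndufs8, which holds iron-sulfur clusters, fell by 0.95 ± 0.17 in experiment 1 (adjusted p = 3.97e-04), with 177 to 258 CPM in young and 96.1 to 117 CPM in aged ovaries. Ndufv2 fell by 0.67 ± 0.20 (adjusted p = 0.0172). Ndufv1, which binds NADH and its flavin, rose by 0.56 ± 0.19 (adjusted p = 0.0278), from 100, 97.3, 146, 119 and 83.6 CPM in young to 202, 140, 154 and 148 CPM in aged ovaries, which overlapped. Its call was lost without young replicate 1, 2 or 5 or aged replicate 1 or 3, with adjusted p up to 0.0899. Ndufs1, Ndufs3 and Ndufs7 were at -0.22, 0.28 and 0.08 and did not pass, and none of these 6 genes passed in experiment 2. Ndufs1 overlaps Eef1b2 on the opposite strand, which held more counts, and the strand of counting is not given.

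The difference of the age effects between experiments was tested in the fit of all libraries, and no member passed (0% of all 17484 genes did). 11 of 83 members had an unadjusted p under 0.05, where 11.8% of all genes did, and DESeq2 called 2 of them. These were Ndufa10, at 1.09 ± 0.25 (adjusted p = 0.086 in edgeR, 0.00811 in DESeq2), and Atp5c1, at 1.22 ± 0.29 (adjusted p = 0.102 in edgeR, 0.0103 in DESeq2), both falling more in experiment 1.

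Promoter sequences are shown for 3 genes that fell in experiment 1 and for Uqcrc1, which rose. They run from 250 bases before to 50 bases after the gene start in RefSeq (GRCm38.p6), in the direction of transcription, and capitals mark matches to 2 of the motifs searched below.
Ndufs4 (chr13:114388045-114388344, minus strand): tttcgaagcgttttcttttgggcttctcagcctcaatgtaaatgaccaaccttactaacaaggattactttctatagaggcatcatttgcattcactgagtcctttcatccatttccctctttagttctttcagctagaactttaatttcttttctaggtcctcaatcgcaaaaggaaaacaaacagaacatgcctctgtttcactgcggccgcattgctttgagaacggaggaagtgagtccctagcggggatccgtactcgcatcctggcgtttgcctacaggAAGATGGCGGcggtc
Ndufa9 (chr6:126849095-126849394, minus strand): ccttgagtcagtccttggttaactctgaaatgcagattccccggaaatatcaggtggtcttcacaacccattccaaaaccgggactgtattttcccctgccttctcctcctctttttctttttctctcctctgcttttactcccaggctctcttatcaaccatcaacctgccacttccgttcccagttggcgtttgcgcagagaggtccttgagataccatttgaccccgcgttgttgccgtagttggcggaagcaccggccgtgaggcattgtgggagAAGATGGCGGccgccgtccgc
Atp5c1 (chr2:10080461-10080760, minus strand): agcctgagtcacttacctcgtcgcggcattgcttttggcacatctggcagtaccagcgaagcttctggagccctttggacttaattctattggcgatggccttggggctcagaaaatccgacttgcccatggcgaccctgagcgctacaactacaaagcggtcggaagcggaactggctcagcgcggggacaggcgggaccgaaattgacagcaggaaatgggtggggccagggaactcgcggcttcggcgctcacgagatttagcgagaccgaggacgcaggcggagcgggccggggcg
Uqcrc1 (chr9:108936398-108936697, plus strand): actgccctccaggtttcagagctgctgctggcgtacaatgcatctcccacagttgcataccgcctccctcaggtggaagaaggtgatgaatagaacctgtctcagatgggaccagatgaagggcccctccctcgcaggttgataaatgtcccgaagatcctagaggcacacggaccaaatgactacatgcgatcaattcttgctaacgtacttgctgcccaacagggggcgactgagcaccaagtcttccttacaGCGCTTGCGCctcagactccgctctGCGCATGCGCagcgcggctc
Ndufs4 and Ndufa9 held the motif of the factor YY1, searched as AAGATGG followed by CGG, from bases 36 and 30 after the start. Uqcrc1 held the motif of NRF1, a transcription factor known for its sites at respiratory chain genes, searched as GCGC, any 1 base and TGCGC, from bases 6 and 31. Atp5c1 held no match to the motifs searched, and neither did Ndufa10, which fell in experiment 1, or Atp5d, which rose (sequences not shown).

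67 of the 85 genes matched a RefSeq window, and 18 did not, among them Uqcrc2, Cox6c, Cox4i1, Cox6a2, Atp5a1 and Sdhc. On both strands, the NRF1 motif lay in 16 of the 67 windows (23.9%) and in 4.78% of 27025 windows of all genes. The ETS motif CCGGAAG lay in 22.4% and 9.12%, the YY1 motif in 5.97% and 0.899%, and TATAAA in 10.4% and 14.2%. A CCGGAAG match can share its last letters with the start of a YY1 match. The NRF1 share was 22.2% of the 18 matched genes that fell with age in experiment 1, close to the share of all matched members, and 1 of the 4 matched genes that rose held it. The YY1 motif lay in 2 of these 18 genes (11.1%), Ndufs4 and Ndufa9, and in 0 of these 4. A match describes the letters only.

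In complex IV, the isoforms took different courses in experiment 1. Cox4i1 (ENSMUSG00000031818, chr8:120668222-120674207), the common isoform of the regulatory subunit 4, was at 577, 614, 734, 634 and 460 CPM in young, 2622, 1042, 952 and 1483 CPM in aged and 635, 693, 692 and 563 CPM in TRi-1 ovaries. All aged libraries lay above all young and TRi-1 ones. The age effect was 1.34 ± 0.25 (adjusted p = 7.13e-04) and, without aged replicate 1, which held the highest value, 0.94 (adjusted p = 0.00142). In experiment 2 it was at 360, 667, 589, 574 and 611 CPM in young, 730, 717, 415, 895 and 792 CPM in aged and 837, 535, 613 and 2471 CPM in auranofin ovaries, and the age effect was 0.34 ± 0.37 (adjusted p = 0.645). The gene overlaps Emc8 on the opposite strand, and the strand of counting is not given in the sources used here. Emc8 had 11113 counts in all, beside 233613 for Cox4i1.

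Ndufa4 (ENSMUSG00000029632, chr6:11900292-11907497) fell by 1.38 ± 0.45 in experiment 1 (adjusted p = 0.0249), from 108, 131, 35.6, 194 and 120 CPM in young to 14.3, 90.4, 38.4 and 38.1 CPM in aged ovaries. It was at 107, 76.9, 97.9 and 84.4 CPM in TRi-1 ovaries. In experiment 2 it was at 153, 10.2, 37.1, 202 and 113 CPM in young, 161, 70.9, 137, 54.2 and 106 CPM in aged and 99.3, 144, 143 and 7.06 CPM in auranofin ovaries. Within each group that held a library apart on the second component, that library had the lowest value, and the young and aged libraries of experiment 2 overlapped over most of their range (0.04 ± 0.70, adjusted p = 0.986). The call of experiment 1 was lost without young replicate 4 or aged replicate 1, 3 or 4, with adjusted p up to 0.0668, and held without both libraries of that experiment that lay apart (-1.32, adjusted p = 0.00513).

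**Figure D3:**
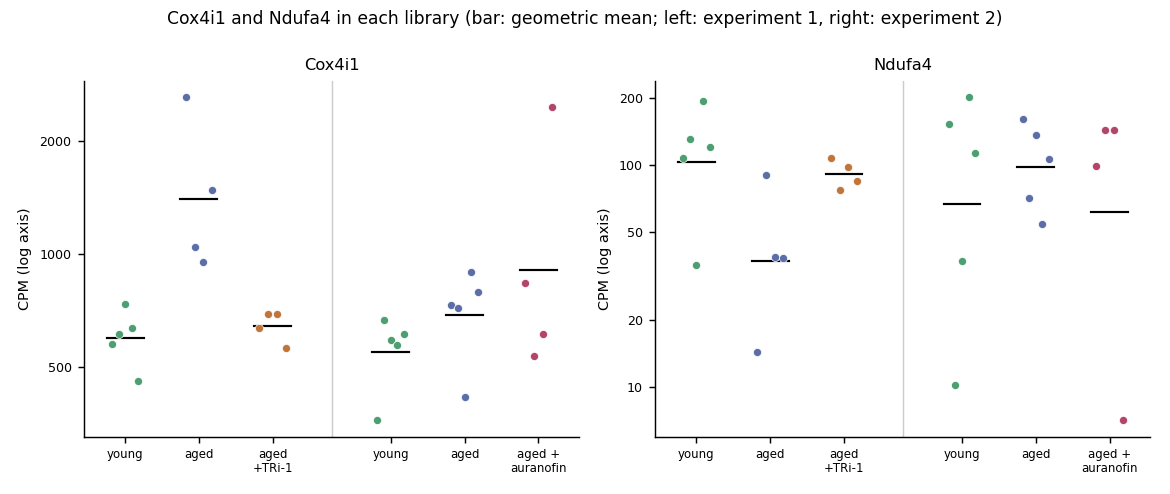
CPM (y axis, logarithmic) of Cox4i1 and Ndufa4 in each library (points) by group (x axis), bars are geometric means. Cox4i1 was highest in aged replicate 1 of experiment 1, at 2622 CPM, and auranofin replicate 4, at 2471 CPM, and Ndufa4 was lowest in auranofin replicate 4, at 7.06 CPM.

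Cox7a2, the common isoform of subunit 7a, fell by 0.65 ± 0.18 in experiment 1 (adjusted p = 0.0115) and was at -0.73 ± 0.24 in experiment 2 (adjusted p = 0.0724). Its muscle isoform Cox7a1 was at -0.08 ± 0.38 and -0.77 ± 0.57 and did not pass. The muscle isoforms Cox6a2 and Cox8b rose in experiment 1 at a low level. Cox6a2 was at 0.819, 0.557, 0, 0.533 and 0.789 CPM in young and 5.21, 2.92, 3.21 and 8.80 CPM in aged ovaries (3.15 ± 0.58, adjusted p = 6.29e-04). It overlaps Itgad on the opposite strand, which had 92 counts in all, beside 633 for Cox6a2, and the strand of counting is not given. Cox8b was at 2.56, 1.67, 0.346, 0.533 and 1.58 CPM in young and 2.88, 3.48, 5.92 and 5.76 CPM in aged ovaries (1.73 ± 0.55, adjusted p = 0.023). Neither pair of groups overlapped. In experiment 2 both were again higher in aged ovaries, by 2.07 ± 0.83 and 1.47 ± 0.70, without passing (adjusted p = 0.136 and 0.219). None of the 7 tested markers of striated muscle passed in either experiment. Their summed level was 13.7 to 34.4 CPM in young and 11.1 to 23.7 CPM in aged ovaries of experiment 1. Of 7 tested markers of brown and white adipocytes, 1 rose in experiment 1 and none passed in experiment 2, with medians of 0.63 and 0.47. The part of either cell type in the values of Cox6a2 and Cox8b was not tested. Of the other isoforms, Cox6a1, Cox6b1, Cox6b2, Cox7a2l, Cox7b and Cox8a did not pass in any comparison within an experiment.

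In complex II, none of the 4 genes passed in any comparison. Sdha, the catalytic flavoprotein, was at 113 to 126 CPM in young and 131 to 164 CPM in aged ovaries of experiment 1, which did not overlap (0.20 ± 0.14, adjusted p = 0.284), and at 157 to 202 and 163 to 208 CPM in experiment 2 (0.10 ± 0.16). Sdhb, its iron-sulfur partner, was at -0.46 ± 0.21 (adjusted p = 0.1) and -0.33 ± 0.29, Sdhc at -0.30 ± 0.27 and 0.41 ± 0.44, and Sdhd at 0.44 ± 0.85 and 0.08 ± 1.04. In complex III, Uqcrfs1, the Rieske iron-sulfur protein, was at 0.33 ± 0.21 and -0.11 ± 0.22, and Uqcr11, a small subunit, fell by 0.86 ± 0.20 in experiment 1 (adjusted p = 0.00372).

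Summed over all members, the level was 24381 to 33219 CPM in young, 21471 to 24802 CPM in aged and 17492 to 20249 CPM in TRi-1 ovaries of experiment 1. It was 21567 to 27407 CPM in young, 16413 to 21842 CPM in aged and 16940 to 26324 CPM in auranofin ovaries of experiment 2. Young and aged libraries overlapped at the edge in both, and the TRi-1 libraries lay below all aged ones. The sum follows the genes with most counts. For complex I, the sum was 8082 to 10459 CPM in young and 6513 to 7565 CPM in aged ovaries of experiment 1, without overlap, and for complex IV 5623 to 7298 CPM and 5654 to 6545 CPM, with overlap.

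**Figure D4:**
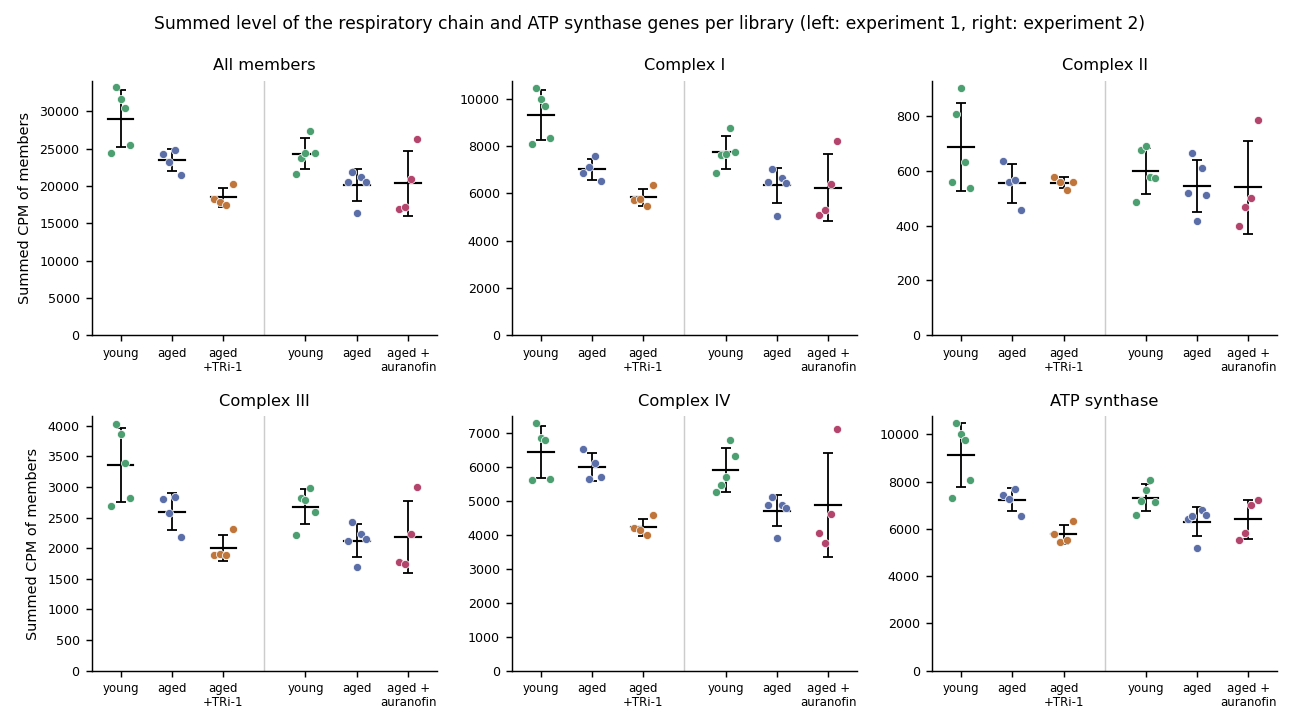
Summed CPM (y axis) of all members and of each complex in each of 27 libraries (points), by group (x axis), with mean and SD. The 4 TRi-1 libraries, at 17492 to 20249 CPM over all members, lie below the 4 aged untreated libraries, at 21471 to 24802 CPM. Auranofin replicate 4, at 26324 CPM, is the highest of its group.

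Markers of cell types moved with age in the same libraries. In experiment 1 all 11 oocyte markers and 7 of 8 granulosa cell markers fell, and all 10 macrophage, 8 T cell and 8 B and plasma cell markers rose. The summed oocyte markers were at 186 to 341 CPM in young and 6.54 to 11 CPM in aged ovaries of experiment 1. In experiment 2 they were at 4.53 to 174 CPM in young and 4.65 to 11.9 CPM in aged ovaries. The young library at 4.53 CPM was replicate 3, with low ovarian markers, and the other young ones were at 66.3 to 174 CPM. The summed macrophage markers were at 656 to 1071 and 5913 to 11810 CPM in experiment 1, and at 683 to 1510 and 4882 to 9375 CPM in experiment 2. Their part in the changes of the respiratory chain genes was not tested. In whole ovary, fewer cells of a type and less RNA per cell cannot be told apart.

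In experiment 1, the GC content of the 3′ part of the transcripts moved with the fold changes. Over the 77 members with at least 5 CPM, the fold change with age in experiment 1 and the GC content of the last 1000 nucleotides had a Pearson r of 0.343, beside 0.223 over 10996 genes, and in TRi-1 the r was -0.396, beside -0.245. With age in experiment 2 the r was 0.157, beside 0.187 over 11529 genes. Under auranofin it was 0.323 for members and of the other sign, -0.105, over all genes. These are correlations across genes, which share libraries and are not independent. The age and drug comparisons of an experiment share its aged untreated libraries. The median GC content was 57.7% for the members that rose with age in experiment 1, 49.5% for those that fell and 50% for the others. Log2 CPM was then taken as its deviation from each gene's mean over the libraries. Within libraries, this deviation rose with GC content by 0.0257 to 0.326 per 10 percentage points in the aged ovaries of experiment 1. In the young ones it changed by -0.246 to -0.126. With offsets that remove such a trend from each library, 35 members fell and 5 rose in experiment 1, and 10 fell in experiment 2. Uqcrc1, Cox4i1 and Atp5d then still rose in experiment 1, by 1.22, 0.83 and 0.62 (adjusted p = 3.3e-04, 0.0101 and 0.00742), and Ndufv1 no longer passed (0.21, adjusted p = 0.367). Over both experiments, with these offsets, Uqcrc1 still rose (0.67, adjusted p = 0.0047), and Cox4i1 and Atp5d did not pass (0.45 and 0.21, adjusted p = 0.0722 and 0.266).

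**Figure D5:**
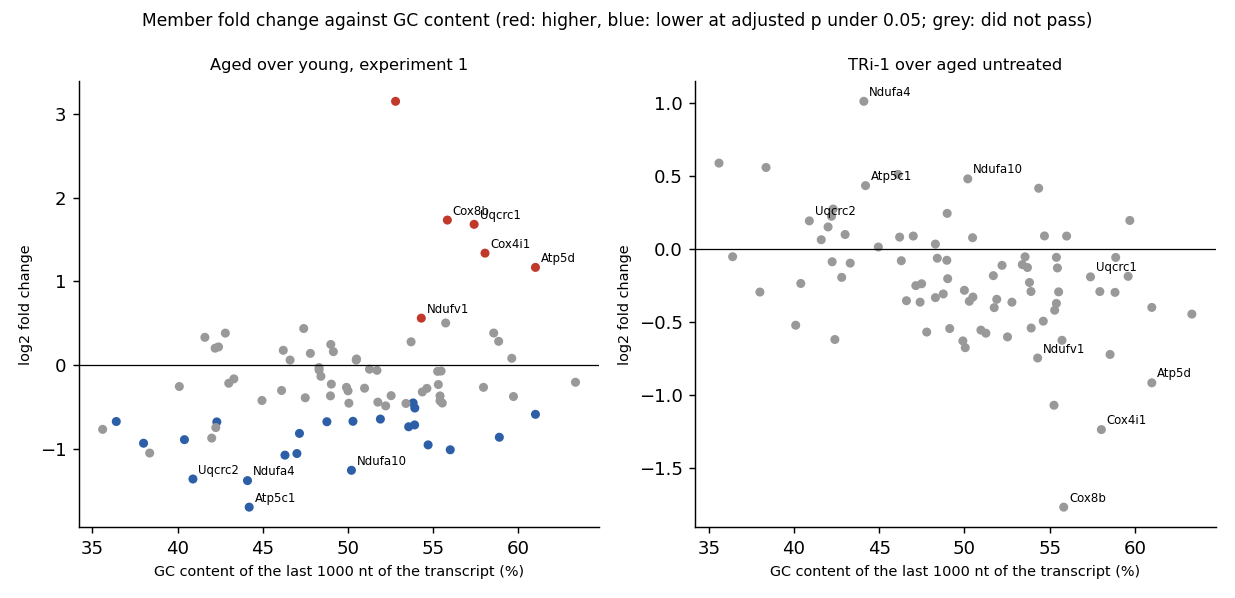
Log2 fold change (y axis) against the GC content of the last 1000 nucleotides of the transcript in percent (x axis) for each tested member, for age in experiment 1 (left, red and blue passed the test) and for TRi-1 (right, none passed). Uqcrc1, Cox4i1 and Atp5d, which rose with age, lie at the GC-rich side, and Atp5c1 and Uqcrc2, which fell, at the GC-poor side. Other genes that fell, among them Ndufa13 (61%) and Uqcr11 (58.9%), lie at the GC-rich side.

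Under TRi-1, no member passed against aged untreated ovaries (edgeR, 81 tested, where 0.418% of all genes passed), and DESeq2 called 7 lower (8.64%, where 1.92% of all genes were). At an unadjusted p under 0.05, 22 members passed, beside 16.5% of all genes. The median was -0.23, beside -0.0031 over all genes, and moved to -0.10 without aged replicate 3, -0.15 without TRi-1 replicate 3 and -0.12 with GC offsets. 16 members lay lower in all TRi-1 than in all aged libraries, where 5.05% of all genes did, and none lay higher, where 4.17% did. TRi-1 replicate 4 stood apart in cell type markers, with granulosa markers at 1323 CPM, against 185 to 274 CPM in the other TRi-1 and 63.7 to 172 CPM in the aged libraries, and B and plasma cell markers at 3179 CPM, against 7169 to 12250 CPM in the other TRi-1 libraries. The 8 granulosa markers tested had a median of 2.12 under TRi-1, and none passed. The part of these cells in the members' values was not tested, and without this library the median was -0.18 and again no member passed. The smallest adjusted p was that of Cox4i1, at -1.24 ± 0.27 (adjusted p = 0.0532, 0.00135 in DESeq2), whose 4 TRi-1 values, given above, lay within the range of the young libraries. Without aged replicate 1 its effect was -0.84 (adjusted p = 0.0849). Atp5d was at 105, 118, 84.1 and 120 CPM in TRi-1 ovaries, below all aged ones (-0.92 ± 0.21, adjusted p = 0.0619).

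Cox8a, the common isoform of the smallest subunit of complex IV, was at 391, 428, 531, 482 and 356 CPM in young, 591, 478, 640 and 573 CPM in aged and 335, 370, 318 and 358 CPM in TRi-1 ovaries, which lay below all aged ones (-0.72 ± 0.17, adjusted p = 0.0625). Ndufv1 was at 100, 110, 89.7 and 83.4 CPM under TRi-1 (-0.75 ± 0.20, adjusted p = 0.0851) and Ndufb11, of the membrane arm of complex I, at 235, 283, 258 and 290 CPM, against 435, 382, 460 and 344 CPM in aged ovaries (-0.60 ± 0.17, adjusted p = 0.101). DESeq2 called all 5 of these genes. Age and TRi-1 were each compared with the same aged untreated libraries, so opposite signs in the 2 comparisons are not independent. The 4 genes that fell with age in both experiments were not called: Uqcrc2 was at 0.19 ± 0.22, Cox6c at -0.25 ± 0.21, Ndufs4 at -0.24 ± 0.19 and Ndufc2 at -0.31 ± 0.20.

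Under auranofin, no member passed (edgeR, 83 tested, where 0.0184% of all genes passed), none was called by DESeq2, and 1 had an unadjusted p under 0.05, beside 7.04% of all genes. The median was -0.06, beside 0.02 over all genes, and took values from -0.14 without replicate 4 to 0.0019 without replicate 1, and no member separated the groups, where 1.94% of all genes lay higher and 1.63% lower. The smallest p was that of Ndufb7, an accessory subunit of complex I, at 102, 66.3, 76.4 and 147 CPM under auranofin and 141, 199, 121, 176 and 140 CPM in aged ovaries, which overlapped (-0.67 ± 0.25, adjusted p = 0.581). Next came Ndufs5 at -0.50 ± 0.25, Ndufb2 at -0.41 ± 0.20, Cox6b2 at -0.74 ± 0.38 and Cox6c at -0.38 ± 0.22. Auranofin replicate 3, with low ovarian markers, and replicate 4, apart on the second component, are 2 of the 4 libraries of this group, and leaving out either set of such libraries of the study also gave no call.

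TRi-1 and auranofin share a target enzyme and were given in different experiments, each with its own aged controls, and doses and times are not given in the sources used here. The difference of their effects, auranofin minus TRi-1, passed for no member (edgeR, where 0.0172% of all genes passed), 12 had an unadjusted p under 0.05, beside 10.9% of all genes, and DESeq2 called 1, Cox4i1. For Cox4i1 it was 1.89 ± 0.50 (adjusted p = 0.186, 0.0411 in DESeq2) and without auranofin replicate 4, which held its highest value, 1.09 (adjusted p = 0.337). For Atp5d it was 1.34 ± 0.38 and for Ndufv1 1.24 ± 0.38 (adjusted p = 0.207 and 0.235). Drug and experiment cannot be told apart in this difference.

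Some members share their sequence with pseudogenes. 42 pseudogenes with counts copied 23 members at 90% identity or more. The processed pseudogene Gm10175 is identical to Atp5g2, one of 3 genes for the c subunit of the rotor ring, and held 84.0% of their joint counts. For Cox7c, a small subunit of complex IV, the copies Gm10012 and Gm12338 held 75.7%, and for the next member, Atp5j, the share was 3.52%. Atp5g2 was at -0.84 ± 0.26 with age in experiment 2 (adjusted p = 0.0524), and with the counts of Gm10175 added it was at -0.32 (adjusted p = 0.362). Alone, Gm10175 was at -0.21 ± 0.23. Reads of the pair cannot be told apart, so the level of Atp5g2 is uncertain. Atp5g1 and Atp5g3, which encode the same mature protein, did not pass (0.22 ± 0.20 and 0.06 ± 0.23 in experiment 1). Adding all pseudogene counts left the number of members called unchanged in every comparison. 37 members overlap another gene, 30 of them one on the opposite strand. The opposite gene held more counts than the member for Ndufs1 and Ndufa4l2. Eef1b2 had 304140 counts in all beside 19314 for Ndufs1, and Shmt2 had 4989 beside 289 for Ndufa4l2. As the strand of counting is not given, the levels of these members are uncertain.

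Other genes of the pathway were counted from lists taken whole, against 18.5% of all genes higher and 16.4% lower in experiment 1 and 5.86% and 4.59% in experiment 2. With age in experiment 1, 6 of 44 assembly factors fell and 4 rose, among them Uqcc2 of complex III (-1.35 ± 0.23) and Cox16 of complex IV (-0.98 ± 0.18), and in experiment 2 Cox16 alone fell (-0.86 ± 0.17). Of 78 mitochondrial ribosomal protein genes, which serve the subunits made inside mitochondria, 20 fell and 5 rose in experiment 1 and 5 fell in experiment 2, with medians of -0.17 and -0.06. Mrps31 and Mrpl32 fell in both, with effects of -2.55 ± 0.42 and -0.92 ± 0.17 in experiment 1 and of -1.36 ± 0.36 and -0.98 ± 0.21 in experiment 2. Of 26 regulators of mitochondrial gene expression, 3 rose and 3 fell in experiment 1, and Tfb2m, a mitochondrial transcription factor, fell in both experiments, by 1.64 ± 0.23 (adjusted p = 5.63e-05) and 1.45 ± 0.21 (adjusted p = 6.34e-04).

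Of 18 citric acid cycle and pyruvate dehydrogenase genes, 3 fell and 1 rose in experiment 1, with Suclg2 lowest at -1.96 ± 0.29. Of 29 electron carriers and transporters, 4 rose and 2 fell, with Ucp2, an uncoupling protein family member also made by immune cells, at 1.60 ± 0.28. Of 17 glycolysis genes, 9 rose and 1 fell, with a median of 0.68, among them Pkm (1.38 ± 0.20) and Pfkp (1.52 ± 0.22), and none passed in experiment 2, where their median was 0.28. Whether the experiments differed for these lists was not tested. Under TRi-1, 1 gene of these 6 lists passed, the assembly factor Ndufaf8 (-1.07 ± 0.17, adjusted p = 0.0258), and under auranofin none did.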

How the data were processed

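Gene counts for the 27 libraries were deposited as 1 table of whole counts per gene ID. RSEM 1.2.3, DESeq2 and the build mm10 are named in the submitters' processing notes, while the annotation and the strand of counting are not given in the sources used here. Total RNA was purified on columns with DNase treatment, and QuantSeq libraries were made, per the labels' protocols. Gene symbols and positions came from GENCODE M21 (GRCm38), which named 51596 of 51789 gene IDs. Depth was 6460903 to 14814381 counts per library, and CPM near 0 rest on few counts.

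Each experiment was fitted on its own with edgeR 4.0.16 in R 4.3.3 (TMM scaling, filterByExpr, quasi-likelihood F test, 1 mean per group, Benjamini-Hochberg over all genes). Mean and difference of effects over experiments came from 1 fit of all 27 libraries. Standard errors were obtained from each fold change and its F statistic (size of the change over root F). The scripts were tested on simulated counts. Alternatives used DESeq2 1.42.0, other scalings, filters and fits, added pseudogene counts (matched with blastn 2.17.0), each library left out and a replicate block. 5 more were chosen after seeing the data: 4 sets of doubtful libraries left out, and GC offsets by lowess.

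Named genes were up to 14 per direction by size of change among those called with a mean of at least 5 CPM, or the 5 with the smallest p, plus isoforms, core subunits, the other genes called with age, and up to 4 genes of each pathway list by p. Members and lists were chosen with earlier results of these data known. The labels number each mouse as a replicate, and libraries were taken as separate mice. Replicates were compared in 48 pairs, and none differed by as little as sampling noise (chi-square per gene 20.52 to 208.4). The values of 1 member are not reported here.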

Additional observations from a re-analysis of the deposited data

Results flagged for a closer look

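In 144 sets of values, each 1 gene or sum in 1 group, 10 had a highest or lowest library far from the others of its group by Dixon's criterion, where chance flags about 1 in 20 groups. Of the genes that fell with age in both experiments, the lowest auranofin library was at 70.2 CPM for Uqcrc2, and the highest TRi-1 library was at 1197 CPM for Cox6c and at 171 CPM for Ndufs4. Cox4i1 was at 2471 CPM and Cox6a2 at 3.93 CPM in the highest auranofin library, which was replicate 4 for both. Cox8a was at 782 CPM in the highest young library of experiment 2, replicate 3, which had low ovarian markers. Among sums, the lowest aged library of experiment 2 was at 16413 CPM over all members, at 5200 CPM for ATP synthase and at 3910 CPM for complex IV, and the highest TRi-1 library was at 2319 CPM for complex III.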

How the results depend on the processing

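No gene chosen by the naming rule changed direction under the alternatives run. Medians of members near 0 did: under auranofin from -0.06 to 0.014 with GC offsets and 0.0019 without auranofin replicate 1, and for the age difference from 0.08 to -0.04 without the libraries apart on the second component. Of the results for single genes, 768 kept their direction and side of the threshold over the alternatives, 21 newly passed and 11 were lost, and with each library left out 1135, 11 and 22 did so. With DESeq2, 7 members were called lower under TRi-1 and 8 with age in experiment 2, and the age difference was called for 2 members and the drug difference for 1, both higher. With a filter of at least 5 CPM, 3 members were called lower under TRi-1, 7 lower with age in experiment 2 and 3 higher over both experiments. Without a filter 2 were called lower under TRi-1, and 1 without haemoglobin, immunoglobulin and ribosomal protein genes. With all 27 libraries in 1 fit, or without the libraries apart on the second component, 7 were lower with age in experiment 2. With young replicate 3 of experiment 2 left out beside these libraries, 12 were lower and 1 higher in experiment 2, and 8 were higher over both. With GC offsets, 35 were lower in experiment 1, 10 in experiment 2 and 37 over both, where 3 were higher. The cause of these shifts was not tested.

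With each library left out, the members called with age in experiment 1 numbered 15 to 29 lower and 4 to 8 higher. In experiment 2, 3 to 8 were lower and 0 higher, with 8 without auranofin replicate 4. Under TRi-1, 0 to 3 were lower, with 3 without young replicate 3 or aged replicate 2 of experiment 1. Over both experiments 21 to 30 were lower and 5 higher, and the age difference was called for 0 to 1 member, the latter without young replicate 4 of experiment 2.

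Deviations of same-numbered libraries had a median r of -0.0658 in experiment 1 (-0.174 to 0.0785, 12 pairs). For 44 pairs with different numbers it was 0.0346. In experiment 2 it was 0.0279 (-0.267 to 0.445, 13 pairs), beside 8.76e-05 (-0.418 to 0.457) in 52 pairs with different numbers. There, 6 same-numbered and 16 other pairs lay over 0.1. These values do not decide whether the numbers pair samples, and the main fits took them as unpaired. With a replicate block, 16 members were lower and 4 higher with age in experiment 1, 3 lower in experiment 2, and 23 lower and 5 higher over both. Over the alternatives, calls among all genes ranged from 4127 to 6057 with age in experiment 1, 1487 to 2438 in experiment 2, 0 to 587 under TRi-1 and 2 to 76 under auranofin. Cox4i2 and Ndufa4l2, with 186 and 289 counts over all libraries, rest on few counts at this depth.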

Other observations

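The count table held 0 genes encoded in mitochondrial DNA, so those subunits are not analysed here. Rows annotated as nuclear copies of them on chromosome 1 carried many counts. Gm28437, whose sequence is 100% identical to mt-Co3, a core subunit of complex IV, was at 1638, 3166, 3308, 1962 and 2405 CPM in young and 1107, 1353, 1407 and 802 CPM in aged ovaries of experiment 1, which did not overlap. It fell by 1.10 ± 0.23 (edgeR, adjusted p = 0.00185). In experiment 2 it was at 1387, 2245, 937, 1767 and 1577 CPM in young and 583, 1117, 768, 1131 and 960 CPM in aged ovaries, which overlapped through young replicate 3, the library with low ovarian markers (-0.80 ± 0.26, adjusted p = 0.0692). The copies Gm10925 of mt-Atp6 and Gm28661 of mt-Co2 fell in experiment 1 by 0.72 and 1.08 (adjusted p = 0.0324 and 0.0471). In experiment 2 they were at -0.57 and -0.31 and did not pass (edgeR, adjusted p = 0.271 and 0.758). Reads from these copies and from mitochondrial RNA cannot be told apart by sequence. Ndufb1-ps, named as a pseudogene of a complex I subunit and outside the set by its biotype, had 37091 counts in all.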
